A study of Mus musculus with 4 samples.

Results

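The genes described here carry the β-adrenergic signal from the cell surface to cyclic AMP (cAMP) and its kinase: the receptor genes Adrb1 and Adrb3, Gnas (the stimulatory G protein subunit), Adcy3 (an adenylyl cyclase), Prkaca and Prkacb (the catalytic subunits of protein kinase A, PKA), Prkar1a and Prkar2b (its regulatory subunits) and the transcription factor gene Creb1. Every array probe that the files assign to 1 of these 9 gene names was taken, which gave 21 probes of the 55681 on the array and 9 genes of the 22066 that could be matched to RefSeq. Gene expression was measured in interscapular brown adipose tissue (iBAT) and epididymal white adipose tissue (eWAT) on 4 one-colour Agilent arrays. The 4 groups were WT iBAT, ASK1-deficient iBAT, WT eWAT and ASK1-deficient eWAT, with 1 array each, and the RNA on an array, labelled with Cy3, was a pool of 3 males, 10 weeks old and kept under normal conditions. The mice lacked ASK1 (encoded by Map3k5) in the whole body, and both genotypes were bred separately, so genotype and breeding line cannot be told apart. No group had a replicate and the spread between mice is not known.

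In adipocytes, noradrenaline released by sympathetic nerves binds β-adrenergic receptors, the stimulatory G protein activates adenylyl cyclase, and the cAMP that is formed releases the catalytic subunits of PKA from their regulatory subunits. PKA then phosphorylates lipolysis proteins, which frees fatty acids, and CREB, which binds cAMP response elements in the promoters of its target genes. In brown adipocytes the same signal drives heat production through Ucp1, and the study placed ASK1 between PKA and p38 in this pathway, so the comparison of genotypes asks whether the pathway's own components and targets differ in expression without ASK1.

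The values are the scanner software's intensities, called the signal here, on a linear scale and not comparable between different probes. A log2 ratio is the difference of log2 signals of one probe between 2 arrays after each array's 75th percentile was subtracted, and the probes of a gene that exceeded background on both arrays were averaged. That percentile was 356 and 371 in WT and ASK1-deficient iBAT and 673 and 634 in WT and ASK1-deficient eWAT, so signals of the tissues differ in scale before this step. Probes spotted repeatedly gave a median SD of the genotype log2 ratio of 0.09 for iBAT and 0.06 for eWAT. The software's own error of a signal was 10% or more, which gives a standard error of 0.20 for the log2 ratio of a bright probe. Both errors cover the array and not the mice. One of the Map3k5 probes was lower without ASK1, with genotype log2 ratios of -2.00 (iBAT) and -1.76 (eWAT), and the other gave -0.06 and -0.51. The tissue labels fitted the markers, since the 12 brown adipocyte genes summed to a scaled signal of 3925 and 3280 in iBAT against 50.5 and 17.4 in eWAT. The iBAT arrays also carried skeletal muscle transcripts, with a summed scaled signal of 906 and 905 for 10 muscle genes against 27.2 and 25.4 in eWAT. Liver transcripts differed between the arrays of each tissue and were highest in WT eWAT. Of 10 hepatocyte genes, 7 could be measured in both eWAT pools, all 7 were below 0 without ASK1 and 5 were at least 2-fold lower, with a median log2 ratio of -3.75. Alb, which encodes albumin, read 3234 in WT eWAT and 158 without ASK1. In iBAT 5 of the 10 were above background in WT and 9 without ASK1, and Alb was not well above background in WT and read 115 without ASK1. The part of these transcripts in the genotype and tissue ratios was not tested.

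The probes of 3 genes are shown because the size of their differences depends on which probe is read. The first 30 of the 60 bases of each are given as the files hold them, 5′ to 3′, with their position on the mouse assembly mm9.
Adrb1 probe 1, chr19:56797242-56797301, plus strand: ctccttcttctgcgagctctggacttcggt
Adrb1 probe 2, chr19:56799215-56799274, plus strand: gttggaaggccattttgcacagtgttaggc
Adrb3 probe 1, chr8:28336268-28336327, minus strand: gggttcataggaagaagtcaaactattgga
Adrb3 probe 2, chr8:28337864-28337923, minus strand: agttttcatcgccctgaactggctgggcta
Gnas probe for transcript variant 4, chr2:174163501-174163560, plus strand: ctgcacgtctttcttcctatgactctacaa
Gnas probe for transcript variant 1, chr2:174171933-174171992, plus strand: taagagtgaaacgtaattgtacaagcagtt
The 2 Adrb1 probes differ in base composition, with 55% and 36.7% G and C, and so do the 2 Adrb3 probes, with 35% and 55%. Of the 21 probes, 18 were well above background on all 4 arrays, 2 further Gnas probes were above it on none, and 1 Creb1 probe was above it only in WT eWAT.

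The β-adrenergic receptor genes ran opposite ways between the tissues. Adrb1 encodes the β1 receptor, which is found in heart as well as fat. At Adrb1 probe 2 the iBAT signal was 2135 in WT and 1027 without ASK1, and the eWAT signal was 541 and 445. WT iBAT was the highest of the 4 arrays at both Adrb1 probes, and the eWAT arrays lay close together. At Adrb1 probe 1 the signals were 221 and 131 in iBAT and 137 and 132 in eWAT, again WT first. As a gene, Adrb1 was 4.78-fold higher in iBAT than in eWAT in WT mice (log2 ratio 2.26) and 2.58-fold higher without ASK1 (log2 ratio 1.37). Its iBAT ratio between ASK1-deficient and WT was -0.97, with -0.82 at probe 1 and -1.12 at probe 2, and 1.13% of all genes lay lower in iBAT. In eWAT the Adrb1 ratio was -0.08, with 0.04 and -0.20 at the 2 probes. The iBAT difference exceeded the software's error at both probes, and the eWAT difference did not.

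Adrb3, the receptor that CL316,243 and related agonists act on, was the only one of the 9 genes that was 2-fold or more lower in iBAT. Adrb3 probe 1 read 23938 in iBAT of WT mice and 19344 in iBAT without ASK1, against 143440 and 144049 in eWAT. At probe 2 the signals were 1651, 1185, 12449 and 12047, so at both probes the 2 eWAT arrays were far above the 2 iBAT arrays and the ASK1-deficient iBAT array was the lowest. The scaled Adrb3 level was 3.55-fold lower in iBAT than in eWAT in WT mice (log2 ratio -1.83) and 5.10-fold lower without ASK1 (log2 ratio -2.35). Between genotypes, Adrb3 had a log2 ratio of -0.45 in iBAT, with -0.37 and -0.54 at its probes, and 0.07 in eWAT. In iBAT 8.0% of all genes had a lower ratio than Adrb3. The eWAT sign of Adrb3 is not settled, since it changed with the scaling.

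The 5 genes whose pattern over the 4 arrays was most like that of Adrb3 were sought by the Euclidean distance between log2 values centred on each gene's own mean, among 14057 genes. They were H1f10, a linker histone, at a distance of 0.07, Cbs, which makes cystathionine, at 0.09, Smoc1, a secreted calcium-binding protein, at 0.12, Hebp1, a haem-binding protein, at 0.14, and Klhl2, a Kelch-like protein, at 0.15. All 5 were lower in iBAT than in eWAT, with log2 ratios from -1.68 for Smoc1 to -1.97 for Klhl2 in WT. With 4 arrays, likeness of this kind is a description of these pools.

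The α-adrenergic receptor genes did not share the lower value of Adrb1 in ASK1-deficient iBAT. The α1 receptor genes Adra1b and Adra1d had ratios of 0.55 and 0.50 in iBAT, and Adra1a had 0.00. The α2 receptor genes Adra2b and Adra2c, which encode inhibitory receptors, had -0.03 and 0.07 there. Between tissues, Adra1a was 3.94 higher in WT iBAT on the log2 scale, while Adra2a, a further α2 receptor gene, was well above background only in eWAT and exceeded iBAT at least 8.90-fold in WT and at least 8.68-fold in ASK1-deficient mice.

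Averaged over their probes, Gnas and Adcy3 were the members with the largest excess in iBAT. This order depended on the probes, since with the brightest probe of each gene the WT log2 ratio between tissues was 2.90 for Adrb1, 2.80 for Adcy3 and 2.60 for Gnas, and with no filter on dim probes Gnas had 2.16 against 2.26 for Adrb1. At the Gnas variant 1 probe the iBAT signal was 156654 in WT and 130548 without ASK1, and the eWAT signal 48994 and 48392. The variant 4 probe read 578 and 311 in iBAT and 68.2 and 55.4 in eWAT. Both probes put the iBAT arrays far above the eWAT arrays with WT iBAT highest, but they disagreed on the size of the genotype difference, with log2 ratios in iBAT of -0.32 for variant 1 and -0.96 for variant 4. The mean over both was -0.64 in iBAT and -0.07 in eWAT. Gnas is a complex locus with several promoters, and reading only its brightest probe gave -0.32. Between tissues, Gnas was 9.86-fold higher in iBAT in WT mice and 6.64-fold higher in ASK1-deficient mice.

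Adcy3, the only cyclase among the 9 genes, has 1 probe, at chr12:4211535-4211594. It read 1042 in WT iBAT, 696 in iBAT without ASK1, and 284 and 243 in eWAT. Adcy3 was 6.95-fold higher in iBAT than in eWAT in WT mice and 4.90-fold higher in ASK1-deficient mice, and its log2 ratio between genotypes was -0.64 for iBAT and -0.14 for eWAT. The other cyclases ran differently. In ASK1-deficient iBAT, 6 of the 7 that could be measured were above 0, with a median of 0.39, and Adcy4, Adcy5 and Adcy7 had ratios of 0.56, 0.48 and 0.43. Adcy5 and Adcy7 were also lower in iBAT than in eWAT, by log2 ratios of -3.67 and -2.81 in WT, where Adcy9 was higher by 1.72. Adcy10, the soluble cyclase that bicarbonate activates, had -1.54 in iBAT, where 1 of its 3 probes was above background on both arrays and read 133 in WT and 47.7 without ASK1, and 0.72 in eWAT.

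**Figure D1:**
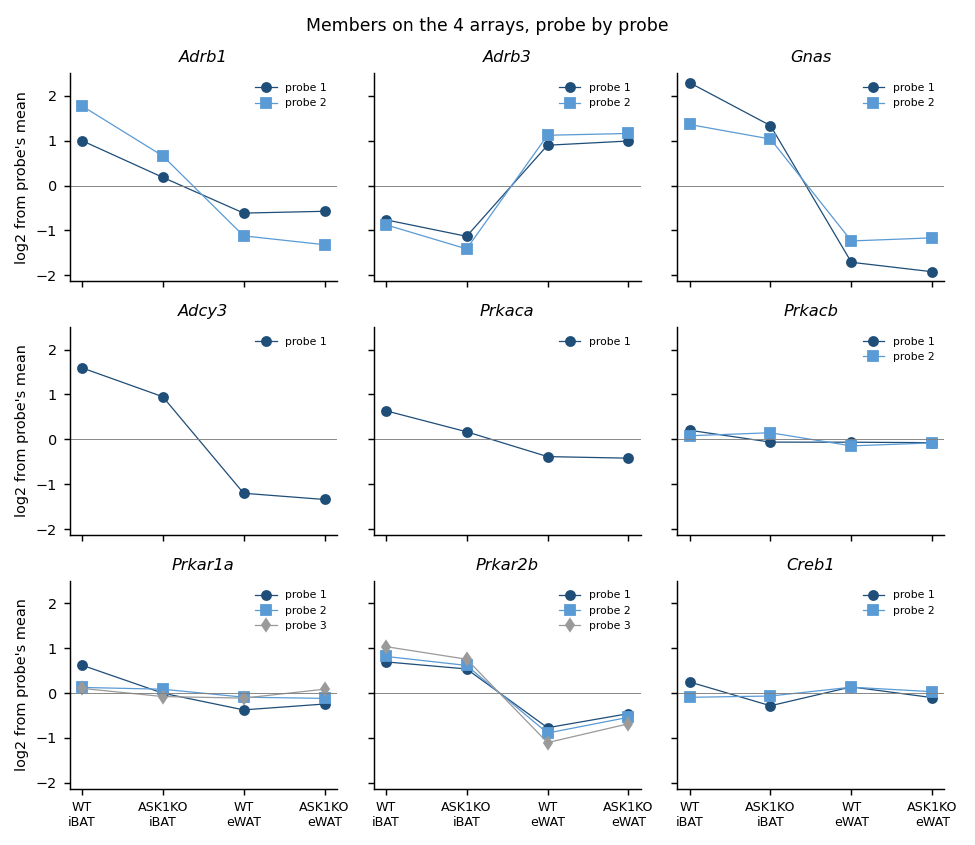
Scaled log2 signal of each probe that was well above background on all 4 arrays, given as its distance from that probe's own mean (y axis, log2) on each of the 4 arrays (x axis), with 1 panel a gene and lines joining the points of 1 probe. Probes are numbered by position, so that Gnas probe 1 is the variant 4 probe. Adrb1, Gnas, Adcy3 and Prkar2b lie above 0 on both iBAT arrays and below it on both eWAT arrays at every probe shown, Adrb3 the other way, and Prkacb and Creb1 stay near 0.

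The catalytic subunits of PKA differed less. Prkaca, at chr8:86519301-86519360, read 571 in WT iBAT, 431 in iBAT without ASK1, and 532 and 489 in eWAT. Between genotypes the log2 ratio of Prkaca was -0.47 for iBAT and -0.04 for eWAT, and 7.39% of genes had a lower ratio in iBAT. The scaled Prkaca level was 2.03-fold higher in iBAT in WT mice and 1.5-fold higher in ASK1-deficient mice, but the unscaled signals barely differed, by 0.10 and -0.18 on the log2 scale. Prkacb has 2 probes at chr3:146392689-146392748 and chr3:146392839-146392898. They gave log2 ratios between genotypes of -0.26 and 0.07 in iBAT, on signals of 674 against 585 and of 6000 against 6558, so no direction can be given for Prkacb. In eWAT the Prkacb ratio was 0.03.

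Of the regulatory subunit genes, Prkar2b had genotype ratios of opposite sign in iBAT and eWAT. Prkar2b encodes RIIβ, the main regulatory subunit of adipose tissue. Its probe at chr12:32643366-32643425 read 108591 in iBAT of WT mice, 101559 in iBAT without ASK1, and 74253 and 86888 in eWAT. In eWAT the ASK1-deficient array was above the WT array at all 3 Prkar2b probes, with log2 ratios of 0.31, 0.35 and 0.42, and the gene's mean of 0.36 was above 95.6% of the genes measured there. In iBAT the same probes gave -0.16, -0.20 and -0.28, of which only the third exceeded the software's error of 0.20. Prkar2b was 3.42-fold higher in iBAT than in eWAT in WT mice and 2.29-fold higher in ASK1-deficient mice.

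Prkar1a, which encodes RIα, has 3 probes whose genotype ratios were all below 0 in iBAT but differed in size there and in sign in eWAT. The bright probe at chr11:109529011-109529070 read 6985 in WT iBAT, 7090 in iBAT without ASK1, 11371 and 10503 in eWAT, and its genotype log2 ratios were -0.04 and -0.03. The dimmest, at chr11:109522994-109523053, read 54.9 and 37.2 in iBAT and 52.0 and 53.6 in eWAT, with ratios of -0.62 and 0.13. The remaining probe, at chr11:109530521-109530580, read 1128 and 1038 in iBAT and 1837 and 1984 in eWAT, with ratios of -0.18 and 0.20. The gene's mean of -0.28 in iBAT therefore rests mainly on a dim probe, and the brightest probe alone gave -0.04. The other PKA subunits and the PKA inhibitors, 5 genes, had a median ratio of 0.14 in iBAT, from -0.27 for Prkar2a through 0.09 for Pkib and 0.14 for Pkig to 0.69 for Prkar1b and 0.70 for Pkia. In eWAT their median was -0.03.

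Creb1, which encodes the transcription factor CREB, read 131 in WT iBAT, 94.7 in iBAT without ASK1, and 230 and 183 in eWAT, at one probe (chr1:64644633-64644692). The other (chr1:64651061-64651120) read 58.3 and 62.1 in iBAT and 129 and 113 in eWAT. The genotype log2 ratio in iBAT was -0.53 at the first and 0.03 at the second, and in eWAT -0.24 and -0.10. The gene's tissue ratio, -0.06 in WT and -0.14 without ASK1, was close to 0. Its relatives and coactivators, 10 genes, had a median genotype ratio of -0.05 in each tissue.

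**Figure D2:**
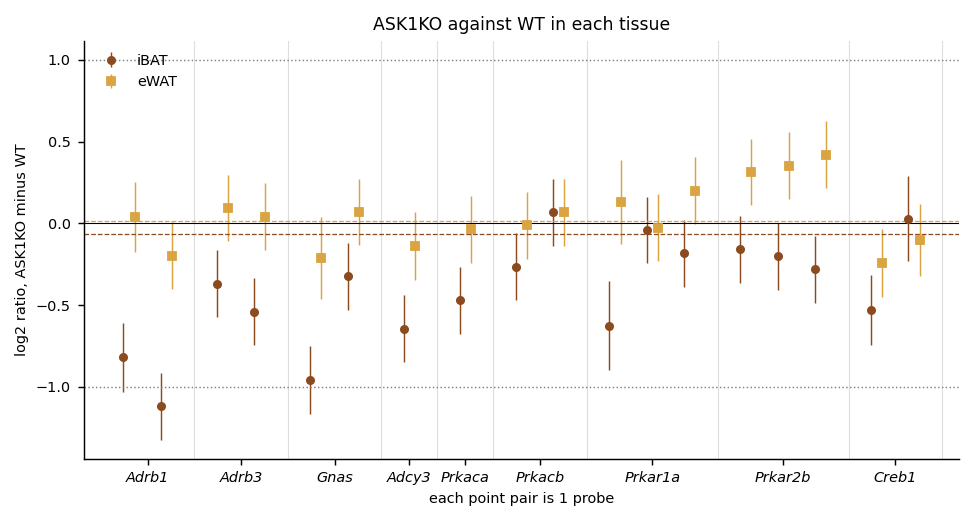
Log2 ratio of ASK1-deficient (ASK1KO) over WT (y axis) for each probe of the 9 genes (x axis), in iBAT (circles) and eWAT (squares), with bars of 1 standard error from the scanner software, dashed lines at the median of all genes in each tissue and dotted lines at 2-fold. In iBAT Adrb1 probe 2 lies lowest, at -1.12, followed by the Gnas variant 4 probe at -0.96 and Adrb1 probe 1 at -0.82, and the 3 Prkar2b points in eWAT lie highest, at 0.31 to 0.42.

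Each of the 9 genes had a mean ratio below 0 in ASK1-deficient iBAT, where 59.5% of all 14377 genes did, and their median was -0.45 against -0.07 for all genes. None was 2-fold apart in iBAT, where 1.85% of all genes were. At 1.5-fold, Adrb1, Gnas and Adcy3 were lower, 3 of 9 beside 4.26% of all genes. Of these, Adrb1 alone was that much lower with the percentile over detected probes, where Gnas and Adcy3 had -0.54 each, with quantile normalization, with -0.50 and -0.58, and without scaling, with -0.58 each. Gnas was also short of it with normexp background correction, at -0.54, and at its brightest probe. In eWAT 5 of the 9 were below 0, where 45.9% of all genes were, and 4 above, their median was -0.04 against 0.02 for all genes, and none was 2-fold apart, beside 1.15% of all genes. The difference between the 2 tissues could not be tested with 1 array per group.

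Markers of cell types also differed between the same iBAT arrays. Of 9 genes of adipocytes of any kind, 7 were below 0 in ASK1-deficient iBAT, with a median of -0.28 and scaled signals that summed to 2468 in WT and 2269 without ASK1. All 10 macrophage genes were above 0, with a median of 0.75 and sums of 43.6 for WT and 55.3 for ASK1-deficient iBAT, and all 10 were well above background on both arrays. The 8 endothelial genes had a median of 0.14 and the muscle sum did not move, at 906 and 905. The medians for eWAT were 0.07 for the adipocyte genes and -0.09 for the macrophage genes. The part of these shifts in the ratios of Adrb1, Adcy3 and the other members was not tested, and in bulk tissue fewer cells of a type and less RNA per cell cannot be told apart.

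Between tissues, Adrb1, Gnas, Adcy3, Prkaca and Prkar2b were at least 2-fold higher in WT iBAT, 5 of 9 beside 16.4% of all genes, and Adrb3 was at least 2-fold lower, 1 of 9 beside 13.4%. Without ASK1, 4 were at least 2-fold higher, beside 12.3% of all genes, since Prkaca was not, and Adrb3 again was lower, beside 12.6%. The log2 ratio between tissues was lower in ASK1-deficient than in WT mice for each of the 9 genes, from 0.08 lower for Creb1 to 0.89 lower for Adrb1. These tissue ratios share their arrays with the genotype ratios and are the same differences read the other way. Over all genes the median tissue ratio was also lower without ASK1, at 0.03 against 0.12 in WT. How many of all genes were lower in this way is not reported here. Prkaca lay close to the 2-fold threshold and was below it under 3 alternatives, with 0.90 after normexp background correction, 0.89 with the percentile over detected probes and 0.10 without scaling. Without ASK1, Prkar2b was below it with quantile normalization, at 0.93, and just below it at its brightest probe. Without scaling, every tissue ratio falls by 0.92 in WT and 0.77 in ASK1-deficient mice. Gnas, Adcy3 and Adrb3 then stay at least 2-fold apart in both genotypes, Adrb1 does so in WT and drops to 0.60 without ASK1, Prkar2b drops below 2-fold in both, with 0.85 and 0.43, Prkacb and Prkar1a turn negative, and so does Prkaca without ASK1.

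**Figure D3:**
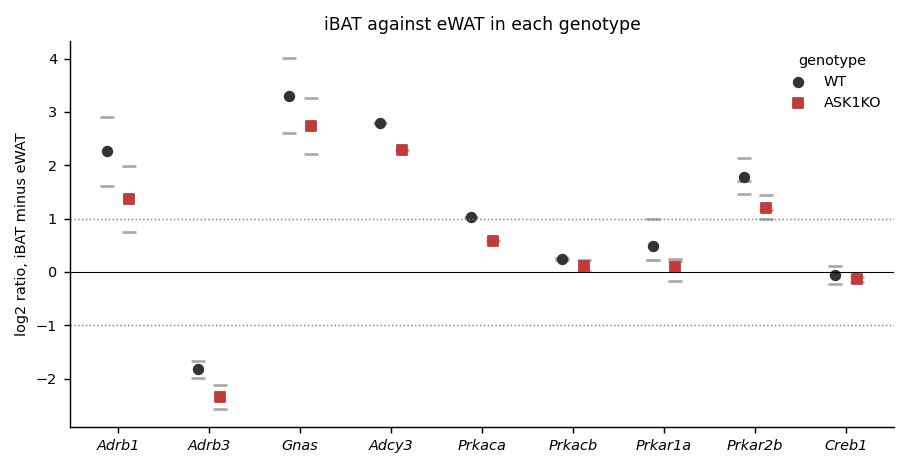
Log2 ratio of iBAT over eWAT (y axis) for the 9 genes (x axis) in WT (circles) and ASK1KO, the ASK1-deficient mice (squares), with grey dashes for the single probes and dotted lines at 2-fold. Gnas and Adcy3 have the highest gene means, at 3.30 and 2.80 in WT, and Adrb3 is the only gene far below 0, at -1.83 and -2.35 for WT and ASK1KO.

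A limma fit of tissue and genotype together over the 4 arrays gave the tissue difference a test, with Benjamini-Hochberg adjustment over 14057 genes. It takes the tissue difference as equal in both genotypes, and its 1 residual degree of freedom is the gap between the genotypes' tissue ratios and not the spread between mice. The standard errors and p-values come from limma's empirical Bayes step, which also draws on the variance of all genes. They therefore do not rest on a gene's own gap alone. By this fit 5 of 9 genes passed an adjusted p of 0.05 as higher in iBAT, beside 30.8% of all genes, and 1 as lower, beside 24.6%. Together these are 6 of 9 beside 55.5% of all genes, so passing this test does not set the 9 genes apart. Gnas had a log2 difference of 3.02 ± 0.18 (SE, limma adjusted p = 6.67e-05), Adcy3 2.54 ± 0.18 (limma adjusted p = 0.000103) and Adrb3 -2.09 ± 0.18 (limma adjusted p = 0.000214). Adrb1 had 1.81 ± 0.23, Prkar2b 1.49 ± 0.19 and Prkaca 0.81 ± 0.17, with limma adjusted p of 0.00101, 0.000941 and 0.00783. Prkacb, Prkar1a and Creb1 did not pass, with limma adjusted p of 0.328, 0.184 and 0.592. For Prkaca the call was lost without scaling, where the difference was -0.04 and the limma adjusted p 0.807, over a range of 0.000664 to 0.807 across the alternatives. For the genotype effect over both tissues no gene passed, 0% of 14057, and 770 had an unadjusted p under 0.05. The lowest limma adjusted p among the 9 genes was 0.931, for Adrb1, with a log2 difference of -0.52 ± 0.23.

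The rest of the pathway was described by 12 lists with 119 genes in all, of receptors, G proteins, cyclases, PKA subunits and inhibitors, anchoring proteins, phosphodiesterases, CREB relatives, target genes, lipolysis proteins and catecholamine enzymes. In iBAT 109 could be measured, their median genotype ratio was -0.06 against -0.07 for all genes, and 6 were lower by 2-fold or more without ASK1, beside 1.02% of all genes, with 0 higher. Those 6 were Nr4a1, Dio2, Nr4a2, Adcy10, Sik1 and Ptger3. In eWAT 2 of 109 were at least 2-fold lower, Ucp1 at -4.63 and Dio2 at -1.02, beside 0.865% of all genes.

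Of these 6, 4 belong to the genes known to respond to cAMP, of which 14 were measured in iBAT, with 13 below 0, beside 59.5% of all genes, and a median of -0.39. This list, like the others, was chosen with earlier results of these data known. Its counts in both tissues are therefore not independent of that choice. Nr4a1, an orphan nuclear receptor gene induced quickly by β-adrenergic stimulation, read 44512 in iBAT of WT mice and 8787 without ASK1, and 3194 and 1642 in eWAT, with genotype log2 ratios of -2.40 and -0.87 for the 2 tissues. Dio2, the deiodinase that makes active thyroid hormone in brown fat, read 9820 and 1978 in iBAT and 117 and 54.0 in eWAT, with ratios of -2.37 and -1.02. WT iBAT was the highest array for both. Nr4a2 had a ratio of -1.81 in iBAT and 0.03 in eWAT, and Sik1, a kinase that feeds back on CREB coactivators, had -1.41 and -0.20. Ptger3, which encodes an inhibitory prostaglandin receptor, had -1.17 in iBAT and -0.05 in eWAT. In eWAT 11 of the 14 target genes were below 0, beside 45.9% of all genes, with a median of -0.27. Ucp1, Dio2 and Ppargc1a of this list are also brown adipocyte genes, and the brown adipocyte genes had medians of -0.32 for iBAT and -0.84 for eWAT, whose part in the target genes' ratios was not tested.

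**Figure D4:**
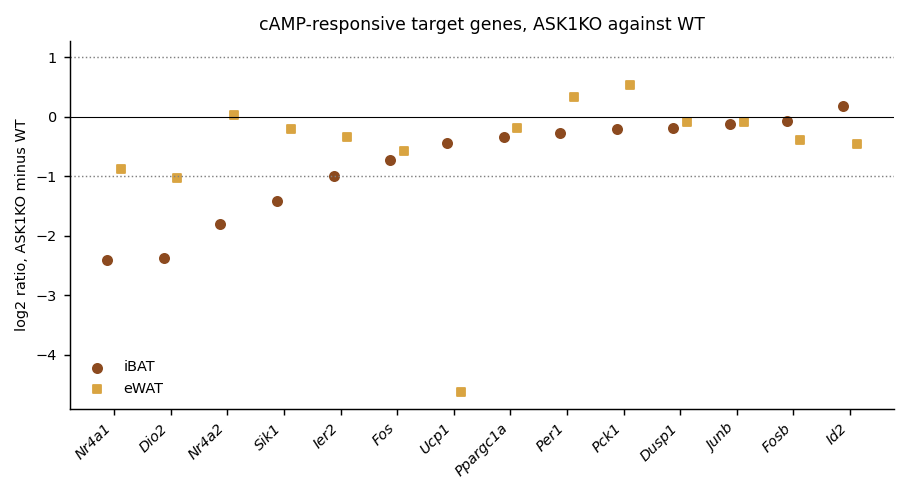
Log2 ratio of ASK1KO (ASK1-deficient) over WT (y axis) for the 14 measured cAMP-responsive target genes (x axis, ordered by the iBAT ratio) in iBAT (circles) and eWAT (squares), with dotted lines at 2-fold. Nr4a1 and Dio2 lie lowest in iBAT, at -2.40 and -2.37, and Ucp1 lowest in eWAT, at -4.63.

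The cAMP response element is the sequence that CREB binds, TGACGTCA in full, which reads the same on both strands, and TGACG as a half-site, which every full site contains. Both were searched on both strands of RefSeq promoter windows of GRCm38.p6, from 250 bases before to 50 after each start. Of 13 target genes with a window, 12 held a half-site and 2, Dio2 and Dusp1, a full site, while of all 27025 genes 23.05% held a half-site and 2.03% a full site. The list holds genes known as CREB targets, so its share was not independent of how it was drawn up. Of the members, 8 had a window, 5 of these held a half-site, and Prkar1a alone held a full site. A gene was counted if any of its windows held a site, and all 27025 genes had 32851 windows. Genes with several windows, such as Prkar1a, Gnas and Prkacb, were therefore more easily counted. Stretches before the start are printed for 3 genes, with the sites in capitals.
Dio2, chr12:90739100-90739159, minus strand: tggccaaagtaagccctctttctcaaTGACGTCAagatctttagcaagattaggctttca
Nr4a1, chr15:101266603-101266820, plus strand: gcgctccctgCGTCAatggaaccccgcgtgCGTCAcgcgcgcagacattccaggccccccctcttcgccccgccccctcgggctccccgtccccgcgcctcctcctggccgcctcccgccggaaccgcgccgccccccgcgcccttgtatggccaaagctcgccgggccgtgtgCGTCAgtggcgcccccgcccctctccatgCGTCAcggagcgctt
Prkar1a, chr11:109650874-109650933, plus strand: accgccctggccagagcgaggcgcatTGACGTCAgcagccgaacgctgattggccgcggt
Dio2 holds its full site 95 bases before the start, Nr4a1 holds 4 half-sites and no full site, and both had ratios under -2 in ASK1-deficient iBAT. Prkar1a holds a full site 49 bases before one of its starts and had a ratio of -0.28, and Dusp1 holds one 143 bases before its start and had a ratio of -0.19, so a full site did not go with a large ratio at every gene. A match is a description of these letters and not of binding.

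All 5 genes of the lipolysis list were below 0 in ASK1-deficient iBAT, beside 59.5% of all genes, with a median of -0.32, and none was 2-fold lower. These were Lipe at -0.30, Plin1 at -0.32, Pnpla2 at -0.13, Abhd5 at -0.47 and G0s2 at -0.54, and Lipe, Plin1 and Pnpla2 also belong to the adipocyte list with its median of -0.28. In eWAT 4 of the 5 were above 0 and G0s2, an inhibitor of lipolysis, was at -0.67. The 17 G protein and desensitisation genes had a median of -0.08 in iBAT and the 16 phosphodiesterases of 0.01, and none of them was 2-fold apart.

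Between tissues the pathway lists held a share of called genes close to that of all genes. By the limma fit, 33 of 107 listed genes were higher in iBAT at an adjusted p of 0.05, or 30.8%, and 27 were lower, or 25.2%, beside the 30.8% and 24.6% of all genes given above. Among receptors other than adrenergic ones, 7 of 13 were lower and 2 higher in iBAT. Sucnr1, the succinate receptor, and Tshr, the thyrotropin receptor, had log2 ratios of -3.87 and -3.61 in WT, beside -1.83 for Adrb3. Of 15 phosphodiesterases tested, 6 were higher and 2 lower in iBAT, and Pde4d led with 4.04. The 10 macrophage genes were lower in WT iBAT too, with a median of -2.42, and their part in these receptor ratios was not tested.

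**Figure D5:**
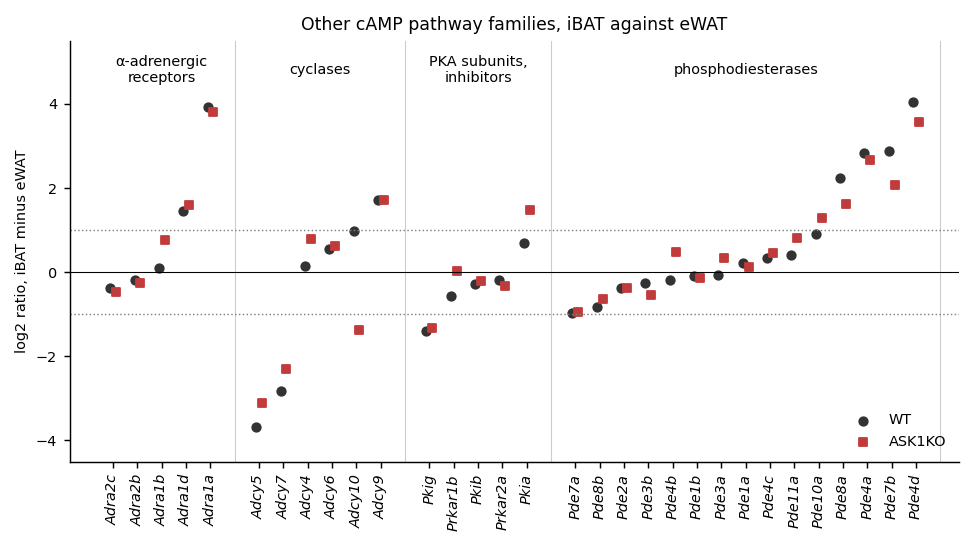
Log2 ratio of iBAT over eWAT (y axis) for α-adrenergic receptors, adenylyl cyclases, PKA subunits and inhibitors, and phosphodiesterases (x axis), in WT (circles) and ASK1KO, the ASK1-deficient mice (squares), with dotted lines at 2-fold. Adcy5 and Adcy7 lie far below 0, at -3.67 and -2.81 in WT, where Adra1a and Pde4d lie near 4, and Adcy10 changes sign between genotypes, from 0.99 to -1.38.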

How the data were processed

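RNA pools of iBAT and eWAT from WT and ASK1-deficient mice, 1 pool each, were hybridized to 4 one-colour Agilent arrays that share 1 slide and were scanned together, so no batch could be separated. The authors deposited the output of Agilent Feature Extraction 10.7.3.1, whose processed signal is a linear intensity that was background-corrected within the array and not scaled between arrays. They also deposited a series table of signal values on a linear scale, which equal the processed signal divided by 1 constant per array that makes its median 1. No normalization is given in the sources used here.

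Here log2 of the processed signal was taken, control and outlier-flagged spots were dropped, repeated spots averaged and the array's 75th percentile over all probes was subtracted. No spot was saturated (0 on each array). Of 34844 gene names, 22147 had a RefSeq symbol or unique synonym, for 22066 genes. A difference against a probe not well above background is given as a bound, against whichever is higher, that probe's level or the dimmest signal well above background on its array. Each array gave 28985 to 33389 probes well above background, and the number of arrays limits the precision.

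Within a tissue or a genotype there was no test, and genes at least 2-fold apart were counted. Tissue and genotype were fitted together with limma over 14057 genes well above background on all 4 arrays. The members, the 12 pathway lists, the marker lists and the tests were chosen with earlier results of these data known. The genes named are the members, the listed pathway genes at least 2-fold apart, at most 10 for each comparison by size, receptors, cyclases and PKA subunits of the lists as families, the 5 genes nearest to Adrb3, and Map3k5. The PKA inhibitors, Alb, Dusp1 and the lipolysis genes were named after their values were seen. Some receptors counted in the lists are not reported here by name. No genome of mm9 was used, so exons were not assigned. The alternatives were normexp with an offset of 50, the percentile over detected probes only, quantile normalization, median centring, no scaling, the series table, no filter on dim probes or detection on all 4 arrays, the brightest probe and a 1.5-fold threshold. The steps were tested on simulated data, with planted changes larger than any genotype ratio of the members and only the noise of repeated spots. That test does not cover smaller changes or the spread between mice. limma 3.58.1 ran in R 4.3.3, and pandas 2.3.3, numpy 2.4.6 and matplotlib 3.10.9 in Python 3.11.15.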

Additional observations from a re-analysis of the deposited data

Results flagged for a closer look

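In all, 3 members had genotype ratios of opposite sign in the 2 tissues by more than the median spread of repeated spots. The eWAT ratios of Adrb3 and Prkar1a, at 0.07 and 0.10, lay within the software's standard error of 0.20 for a bright probe, and with 1 array per group the difference between tissues was not tested. The log2 ratio of ASK1-deficient over WT was lower in iBAT than in eWAT by a difference of -0.52 for Adrb3, -0.38 for Prkar1a and -0.58 for Prkar2b. Prkar2b had all 3 probes below 0 in iBAT and above 0 in eWAT. The sign of Adrb3 and Prkar1a in eWAT changed with the processing, and Prkar1a rests on a dim probe in iBAT.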

How the results depend on the processing

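In iBAT, no member was 2-fold apart between genotypes, but 1 was, Adrb1, after median centring, with the series table and with the brightest probe of each gene (log2 ratio from -1.12 to -0.84 across the alternatives), and 3 were at a 1.5-fold threshold. All 9 members were below 0 in iBAT except under 3 alternatives, where 8 were, with the percentile over probes above background on all arrays, with no filter on dim probes and with the brightest probe, because Prkacb or Creb1 turned positive. The pathway genes 2-fold apart in eWAT went from 2 to 1 with normexp and with the series table, to 3 with detection on all 4 arrays and with the brightest probe, and to 4 with no filter on dim probes, 1 of them higher under each of the last 3. In iBAT they went from 6 to 9 with no filter and were 5 to 7 under the other alternatives at 2-fold. Members 2-fold apart between tissues went from 6 to 4 in WT and from 5 to 3 in ASK1-deficient mice without scaling, to 5 in WT with normexp and with the percentile over detected probes, and to 4 in ASK1-deficient mice with quantile normalization and with the brightest probe. The limma fit was repeated with normexp, the other scalings, the series table and the brightest probe, but not without the filter on dim probes. In it, the number of genes with a genotype effect over both tissues was 0, but 24 with normexp, 139 with median centring and 128 with the series table, with 0 members among them under every alternative fitted. For the tissue effect 6 members passed under each alternative fitted except no scaling, where 8 did, Prkacb, Prkar1a and Creb1 as lower in iBAT and Prkaca no longer. The cause of these shifts was not tested. Of the members' ratios under alternatives, 202 moved by less than the spread of repeated spots and 122 by more, and none that was 2-fold reversed. Among genes 2-fold apart between genotypes in iBAT, those higher without ASK1 made up 45.1%, and this share moved with the scaling, to 61.8% with the percentile over probes above background on all arrays, and to 32.6% with median centring and 31.7% with the series table. Genes higher in iBAT made up 55.1% of those 2-fold apart between tissues in WT and 49.4% in ASK1-deficient mice, and 11.39% and 10.72% without scaling. No paired analysis was possible because each group holds 1 array and so no replicate numbers to pair, beyond the limma fit itself, which compares the tissues within each genotype. Leaving out an array would leave this fit with no residual degree of freedom.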
